A study of Danio rerio with 12 samples.

Results

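The DNA replication machinery was followed as 47 named genes that cover origin licensing, the replicative helicase, the DNA polymerases, the sliding clamp and its loader, Okazaki fragment joining, deoxynucleotide supply and histone deposition. The genes were chosen by name, with earlier results of these data known. Of the 26816 gene IDs listed, 48 carried one of these names, because rrm2 is the name of 2 IDs. All 48 passed the filter on low values (a normalised count of at least 10 in at least 3 libraries), as did 22404 gene IDs in all. The lowest value of any of the 48 in any library was 41 and the highest was 8086.

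RNA was sequenced from whole wild-type zebrafish at 5 days post fertilisation, each library made from a pool of 10 larvae. Tributyltin chloride (TBT) is an organotin once used in antifouling paints and is known as an agonist of the retinoid X receptors. It was added to the water from day 2 to day 5 at 3, 30 or 100 nM, and control larvae had no TBT. Each of the 4 groups had 3 pools, and all of them, controls included, were kept in 0.2% DMSO. The labels do not state whether pools sharing a concentration were separate clutches or were exposed apart, so the p-values measure the spread between pools, which may be technical.

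Before a cell can copy its DNA, the origin recognition complex, Cdc6 and Cdt1 load the ring of Mcm subunits onto chromatin. Mcm10, Cdc45 and the GINS complex then turn the ring into an active helicase, primase and polymerase alpha start each new strand, and polymerases delta and epsilon extend it on the PCNA clamp. These roles were worked out mainly in yeast, frog egg extracts and human cells, and most of the genes are transcribed towards S phase under E2F factors. In a larva of this age, dividing cells are known in the margin of the retina, the ventricular zones of the brain, the thymus, the gut and the blood-forming tissue.

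Library totals lay between 26500000 and 35800000 normalised counts. The 48 IDs made up 0.0785% ± 0.00916 of all values in 100 nM pools (SD, n = 3), against 0.152% ± 0.00567 in control pools (SD, n = 3), and 0.146% and 0.142% at 3 and 30 nM. The second library of each group stood low for many of the genes, being the lowest of its group in all 4 groups for 20 of 48, where 14.7% of all tested genes showed this, and the highest in all 4 groups for 0 of 48, where 16.4% of all tested genes did. Without the second libraries of every group, a choice made after seeing the data, 37 of 48 IDs were called lower at 100 nM. Over all genes 1863 of 22404 were called lower in that fit.

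At 100 nM TBT most of the replication machinery was expressed at a lower level than in controls. Of the 48 IDs, 34 fell and 0 rose at an adjusted p below 0.05 in limma, and 0 were above control at an unadjusted p below that level. Among all tested genes 7.9% fell and 9.63% rose, 17.5% in either direction. The median log2 fold change, computed on log2(normalised count + 1), was -0.75 over the 48 IDs and -0.02 over all genes, and 47 of the 48 lay below 0. Mean levels at 100 nM ran between 43.1% and 110.8% of the control mean, with a median of 59.2%. In 35 of 48 all 100 nM pools lay below all control pools, as in 12.9% of all genes, and in 35 they also lay below all 9 other pools, as in 7.15% of all genes. In bulk RNA of whole larvae, fewer dividing cells and less RNA of these genes per cell cannot be told apart. Over all 22404 tested genes, 1769 were called lower with all 12 libraries in the fit. When only the 100 nM and control libraries were fitted, 459 of all genes and 21 of the 48 were called lower. The 13 calls lost in that fit were those of orc1, orc3, mcm4, mcm10, gins1, gins3, pcna, rfc3, pold2, pole2, rpa1, tyms and tk1, with an adjusted p between 0.0523 and 0.158.

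**Figure D1:**
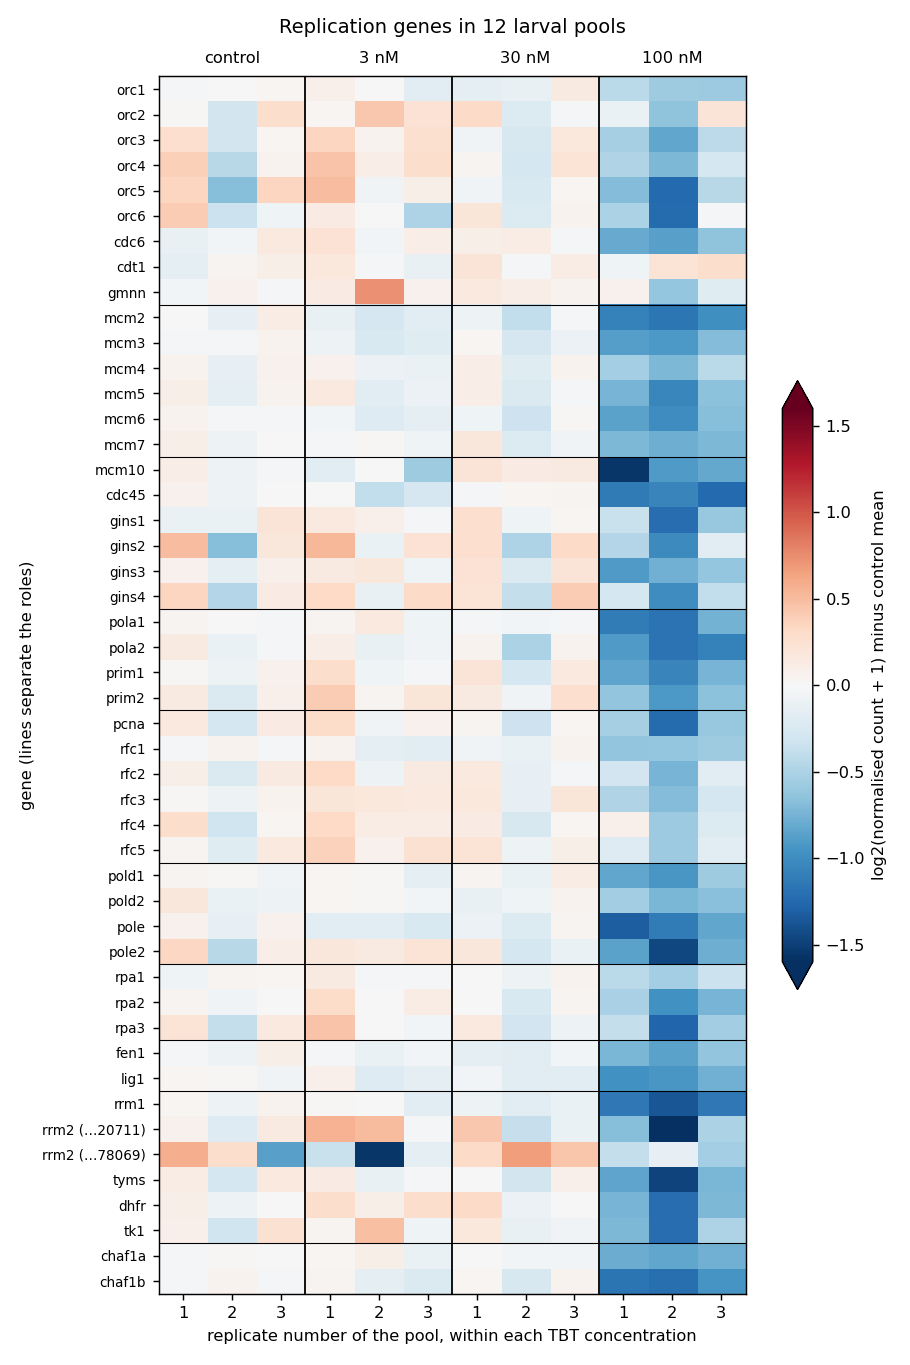
Each row is a replication gene ID and each column a larval pool, ordered by TBT concentration. The colour gives log2(normalised count + 1) minus the control mean, and the 100 nM columns are blue in nearly every row, while cdt1 stays pale at a log2 fold change of 0.14.

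The ring of the replicative helicase is built from Mcm2 to Mcm7, and the genes of all 6 subunits fell at 100 nM. The mcm2 gene (ENSDARG00000102798) had 917, 874 and 983 normalised counts in 100 nM pools, against 1960, 1768 and 2120 in control pools. Its pools held 1791, 1613 and 1713 at 3 nM, and 1833, 1483 and 1919 at 30 nM. All 100 nM values lay below every other pool, and the log2 fold change was -1.07 ± 0.11 (SE, adjusted p = 0.000138). For mcm3 the 100 nM pools had 727, 705 and 830, against 1313, 1316 and 1390 in control pools, a log2 fold change of -0.83 ± 0.10 (adjusted p = 0.000329). The mcm6 gene had 930, 847 and 1046 at 100 nM, against 1743, 1642 and 1665 in controls (-0.84 ± 0.11, adjusted p = 0.000493). Neither gene's 100 nM pools overlapped those of any other group. In mcm5 the values were 921, 748 and 978 at 100 nM, against 1648, 1393 and 1610 in controls (-0.82 ± 0.14, adjusted p = 0.00208). The mcm7 pools had 999, 959 and 1006 at 100 nM, against 1760, 1558 and 1636 in controls (-0.74 ± 0.10, adjusted p = 0.00076). The smallest fall of the 6 was that of mcm4, with 1466, 1303 and 1586 at 100 nM, against 2222, 1950 and 2250 in controls (-0.56 ± 0.11, adjusted p = 0.00601). As a description only, since both genes were picked as the largest and the smallest fall, the ratio of mcm2 to mcm4 was 0.626, 0.671 and 0.62 in 100 nM pools, against 0.882, 0.907 and 0.942 in control pools, and lay between 0.794 and 0.866 in the 3 and 30 nM pools.

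**Figure D2:**
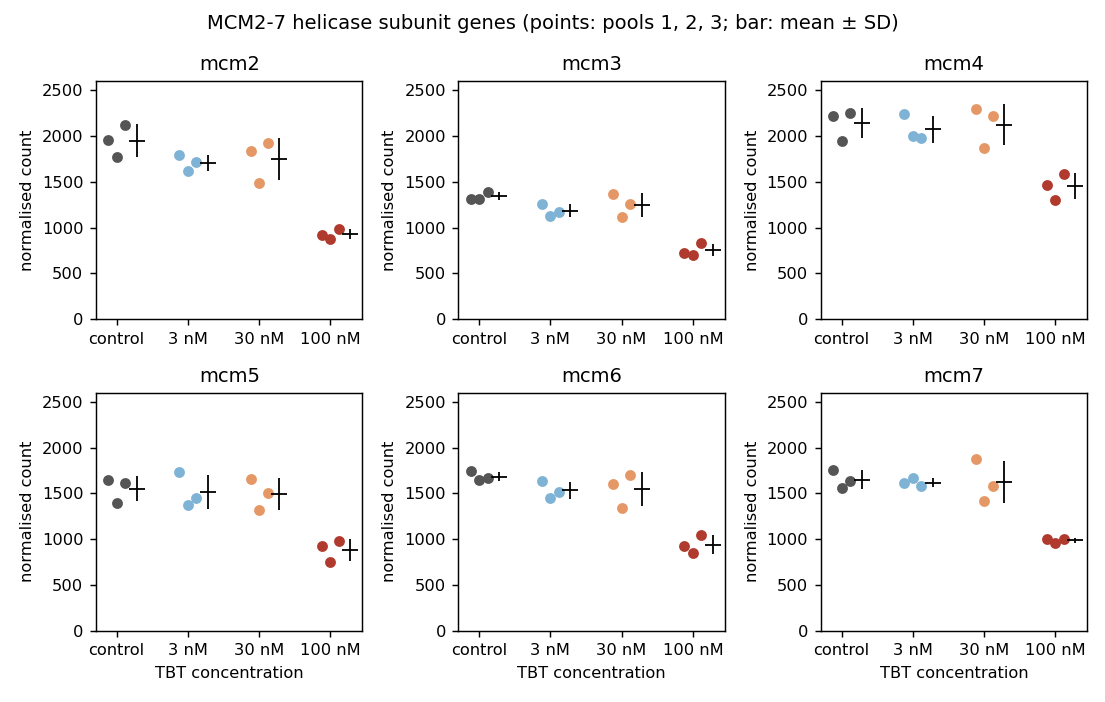
Normalised counts of the genes for the helicase ring subunits (vertical axis) by TBT concentration (horizontal axis), with a point for each pool and the mean ± SD beside the points. In each panel the 3 pools at 100 nM lie below all 9 others, and mcm2 at 100 nM reaches 983 at most.

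The factors that switch the ring on fell in 4 of 6 cases. The cdc45 gene (ENSDARG00000043720), whose product joins the ring to form the active helicase, had 89, 94 and 82 normalised counts in 100 nM pools, against 206, 186 and 197 in control pools. Its 3 and 30 nM pools lay between 149 and 203, and the log2 fold change at 100 nM was -1.14 ± 0.13 (adjusted p = 0.000186). The mcm10 gene, for a factor needed to start unwinding, had 41, 65 and 69 at 100 nM, against 132, 116 and 120 in controls (-1.09 ± 0.21, adjusted p = 0.00456). For both genes the 100 nM pools stood apart from all others. GINS is a complex of 4 subunits that binds Cdc45 and the ring. Its gene gins3 had 58, 64 and 71 at 100 nM, against 115, 98 and 116 in controls (-0.76 ± 0.16, adjusted p = 0.00892). In gins1 the values were 121, 66 and 101 at 100 nM, against 144, 144 and 178 in controls (-0.72 ± 0.20, adjusted p = 0.0314). The gins1 call was lost when 100 nM pool 2, 100 nM pool 3 or control pool 3 was left out, with an adjusted p of up to 0.125, and also without the second libraries of every group (adjusted p = 0.0824). The other GINS genes had overlapping groups and were not called, gins2 at -0.56 ± 0.33 (adjusted p = 0.283) and gins4 at -0.56 ± 0.27 (adjusted p = 0.187).

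Origin licensing genes had the lowest share of calls of any role, with 3 of 9 called lower. The fit leaves the variation shared by same-numbered pools in its spread, and its calls carry this limit. With the replicate number as a block, 42 of the 48 were called lower, as were 3888 of 22404 genes. The cdc6 gene (ENSDARG00000009942), for the ATPase that helps to load the ring, had 185, 177 and 208 normalised counts at 100 nM, against 299, 316 and 362 in controls (-0.77 ± 0.12, adjusted p = 0.00119). In orc1, for the largest subunit of the origin recognition complex, the 100 nM pools had 210, 191 and 189, against 278, 282 and 289 in control pools (-0.52 ± 0.11, adjusted p = 0.00946). Without the second libraries of every group the orc1 fall was -0.51 (adjusted p = 0.0563). The orc3 gene had 220, 179 and 239 at 100 nM, against 384, 260 and 325 in controls (-0.59 ± 0.17, adjusted p = 0.0348). Its call was lost when any of 6 libraries was left out (100 nM pools 1 and 2, 30 nM pool 1, 3 nM pool 3, control pools 1 and 3), with an adjusted p of up to 0.105. The remaining subunit genes of the complex were below 0 without passing the test, orc5 at -0.80 ± 0.29 (adjusted p = 0.0819), orc6 at -0.58 ± 0.30 (adjusted p = 0.213), orc4 at -0.50 ± 0.21 (adjusted p = 0.131) and orc2 at -0.18 ± 0.24 (adjusted p = 0.653).

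The licensing factor gene cdt1 (ENSDARG00000051854) was the only one of the 48 with a log2 fold change above 0 at 100 nM. Its pools had 176, 215 and 226 normalised counts at 100 nM, against 168, 191 and 198 in controls, and 170 to 214 at 3 and 30 nM. The groups overlapped, and the difference of 0.14 ± 0.14 did not pass the test (adjusted p = 0.518). With every library scaled to the same total it was -0.045 (adjusted p = 0.883), so its sign depended on the scaling. Geminin, the inhibitor of Cdt1, is encoded by gmnn, which had 190, 118 and 159 at 100 nM, against 176, 190 and 178 in controls (-0.24 ± 0.20, adjusted p = 0.436). Both partners of the ring loading step can be set side by side as the ratio of cdc6 to cdt1, a pair picked after its values were seen. It was 1.05, 0.823 and 0.92 in 100 nM pools, against 1.78, 1.65 and 1.83 in control pools, and 1.59 to 2.05 at 3 and 30 nM.

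All 4 genes of the polymerase alpha and primase complex, which lays down the short RNA and DNA primers, fell at 100 nM. The catalytic subunit gene pola1 (ENSDARG00000045308) had 440, 422 and 567 normalised counts in 100 nM pools, against 991, 952 and 936 in control pools (-1.02 ± 0.11, adjusted p = 0.000199). The accessory subunit gene pola2 had 224, 185 and 199 at 100 nM, against 464, 390 and 412 in controls (-1.06 ± 0.16, adjusted p = 0.0011). For the primase genes, too, all 100 nM pools lay below every other pool. Values of prim1, the catalytic primase subunit, were 262, 226 and 281 at 100 nM, against 476, 445 and 492 in controls (-0.88 ± 0.15, adjusted p = 0.00243). Those of prim2, the regulatory subunit, were 343, 282 and 338 at 100 nM, against 589, 453 and 565 in controls (-0.73 ± 0.14, adjusted p = 0.00526).

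Genes of the elongating polymerases likewise fell in 4 of 4 cases. The catalytic subunit gene of polymerase epsilon, pole (ENSDARG00000058533), had 267, 307 and 376 normalised counts at 100 nM, against 700, 607 and 698 in controls (-1.09 ± 0.13, adjusted p = 0.000286). Its partner pole2 had 75, 49 and 79 at 100 nM, against 171, 100 and 147 in controls (-1.03 ± 0.23, adjusted p = 0.011). Polymerase epsilon is known for copying the leading strand and polymerase delta for the lagging strand. For polymerase delta, pold1 had 527, 491 and 632 at 100 nM, against 965, 948 and 898 in controls (-0.78 ± 0.11, adjusted p = 0.000807). The pold2 values were 176, 156 and 162 at 100 nM, against 293, 241 and 245 in controls (-0.65 ± 0.11, adjusted p = 0.00253). In each of these genes all 100 nM pools lay below all 9 others.

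The sliding clamp gene pcna (ENSDARG00000054155) had 4550, 2796 and 4327 normalised counts in 100 nM pools, against 7317, 5440 and 7186 in control pools. The 3 nM pools had 8086, 6333 and 6927, and the 30 nM pools 6797, 5257 and 6734. The second pool was the lowest in every group, and the log2 fold change at 100 nM was -0.79 ± 0.20 (adjusted p = 0.0183), a call that was lost without control pool 3 (adjusted p = 0.0737). PCNA is opened and placed on DNA by replication factor C, a complex of 5 subunits, of which 2 genes fell. The large subunit gene rfc1 had 397, 399 and 412 at 100 nM, against 600, 640 and 600 in controls (-0.61 ± 0.09, adjusted p = 0.00119). The rfc3 gene had 350, 301 and 402 at 100 nM, against 494, 463 and 509 in controls (-0.49 ± 0.12, adjusted p = 0.0199), and its call was lost without 100 nM pool 1 (adjusted p = 0.0532) or control pool 3 (adjusted p = 0.0769). The small subunit genes rfc2, rfc4 and rfc5 had overlapping groups, with log2 fold changes of -0.41 ± 0.17, -0.24 ± 0.19 and -0.32 ± 0.14 that did not pass the test (adjusted p = 0.115, 0.425 and 0.146).

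Replication protein A coats exposed single strands, and 2 of its 3 subunit genes fell. Values of rpa1 (ENSDARG00000003938) were 1389, 1276 and 1469 at 100 nM, against 1772, 1925 and 1904 in controls. Its log2 fold change of -0.44 ± 0.09 (adjusted p = 0.00583) was the smallest among the 34 genes called. The rpa2 gene had 502, 365 and 427 at 100 nM, against 739, 692 and 724 in controls (-0.75 ± 0.13, adjusted p = 0.00278). The estimate for rpa3 was close to that of rpa2, at -0.73 ± 0.25, but its pools spread more (225, 121 and 199 at 100 nM, against 339, 225 and 327 in controls) and it did not pass the test (adjusted p = 0.0655). Okazaki fragments are trimmed by the flap nuclease Fen1 and sealed by DNA ligase 1. Both genes fell, fen1 with 363, 333 and 389 at 100 nM, against 598, 573 and 646 in controls (-0.74 ± 0.09, adjusted p = 0.000369). The lig1 gene had 522, 539 and 604 at 100 nM, against 1052, 1036 and 991 in controls (-0.89 ± 0.10, adjusted p = 0.000215).

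Deoxynucleotides are made by ribonucleotide reductase, and the gene of its large subunit, rrm1 (ENSDARG00000014017), had the largest fall of the 48. Its pools had 1243, 1062 and 1237 normalised counts at 100 nM, against 2788, 2593 and 2835 in controls. The 3 nM pools had 2762, 2732 and 2442 and the 30 nM pools 2596, 2409 and 2539. Levels at 100 nM were 43.1% of the control mean, with a log2 fold change of -1.22 ± 0.09 (adjusted p = 2.29e-05). The thymidylate synthase gene tyms had 306, 196 and 331 at 100 nM, against 599, 453 and 614 in controls (-1.02 ± 0.20, adjusted p = 0.005). In dhfr, for the dihydrofolate reductase that keeps thymidylate synthesis supplied with folate, the values were 332, 239 and 338 at 100 nM, against 597, 526 and 556 in controls (-0.90 ± 0.15, adjusted p = 0.00208). Thymidine is salvaged by thymidine kinase 1, whose gene tk1 had 319, 227 and 375 at 100 nM, against 558, 423 and 623 in controls (-0.81 ± 0.21, adjusted p = 0.0218). That call was lost without 100 nM pool 2 (adjusted p = 0.0527) or control pool 3 (adjusted p = 0.0941).

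The small subunit of ribonucleotide reductase was listed under 2 gene IDs named rrm2, and neither passed the test on its own. The first, ENSDARG00000020711, had 2103, 857 and 2369 normalised counts at 100 nM, against 3539, 2918 and 3731 in controls (-1.06 ± 0.34, adjusted p = 0.0563). All of its 100 nM pools lay below the other 9, which made it the only uncalled ID with no overlap. The second, ENSDARG00000078069, had 852, 1015 and 764 at 100 nM, against 1668, 1348 and 610 in controls (-0.35 ± 0.39, adjusted p = 0.581), and its 3 nM pools went as low as 378. Both IDs may share reads, which was not tested, so the values of each are uncertain. Their sum, an alternative added after seeing the data, was 2955, 1872 and 3133 at 100 nM, against 5207, 4266 and 4341 in controls, and passed the test at -0.83 ± 0.20 (adjusted p = 0.0161).

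**Figure D3:**
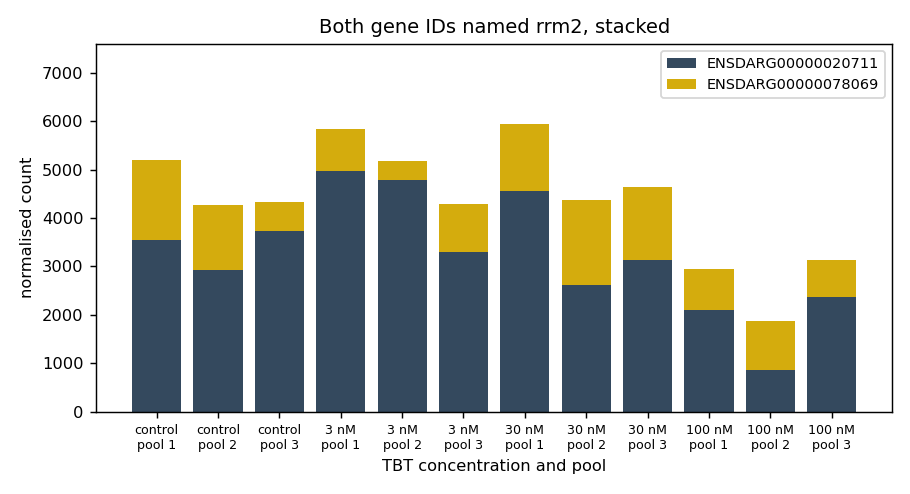
Stacked bars give the normalised counts of both gene IDs named rrm2 (vertical axis) in each of the 12 pools, ordered by TBT concentration (horizontal axis). The summed bars at 100 nM reach 3133 at most and lie below all control bars, while the split between the IDs varies between pools of every group.

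Chromatin assembly factor 1 deposits histones H3 and H4 behind the fork, and the genes of both subunits measured fell. The chaf1a gene (ENSDARG00000062152) had 876, 854 and 891 normalised counts at 100 nM, against 1495, 1531 and 1522 in controls. Its pools agreed closely within each group, and the log2 fold change was -0.79 ± 0.08 (adjusted p = 8.88e-05). The chaf1b gene had 221, 214 and 258 at 100 nM, against 488, 515 and 486 in controls (-1.10 ± 0.12, adjusted p = 0.000171). The largest falls of the 48 were those of rrm1, cdc45, chaf1b, mcm10, pole and mcm2.

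Neither lower concentration changed any replication gene past the threshold. At 30 nM 0 of 48 IDs were called in limma and 0 had an unadjusted p below 0.05, where 0.152% of all genes were called lower, 0.379% higher and 0.531% in either direction. At 3 nM 0 of 48 were called and 0 had an unadjusted p below 0.05, where 0.0357% of all genes were called lower, 0.00446% higher and 0.0402% in either direction. The median log2 fold change over the 48 was 0.04 at 3 nM, ranging between -0.69 and 0.34, and -0.02 at 30 nM, ranging between -0.16 and 0.47. The half-width of a gene's 95% interval, before adjustment, was 0.31 at the median for both concentrations. Changes smaller than this were mostly not detectable with 3 pools, and a call by adjusted p takes a larger change. At 3 nM the lowest p-values belonged to cdc45, with 195, 149 and 163 at 3 nM, against 206, 186 and 197 in controls (-0.22 ± 0.13), and to the second rrm2 ID at -0.69 ± 0.39 (adjusted p = 0.509 for each). At 30 nM they belonged to mcm2 (-0.16 ± 0.11, adjusted p = 0.69) and fen1 (-0.12 ± 0.09, adjusted p = 0.719).

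**Figure D4:**
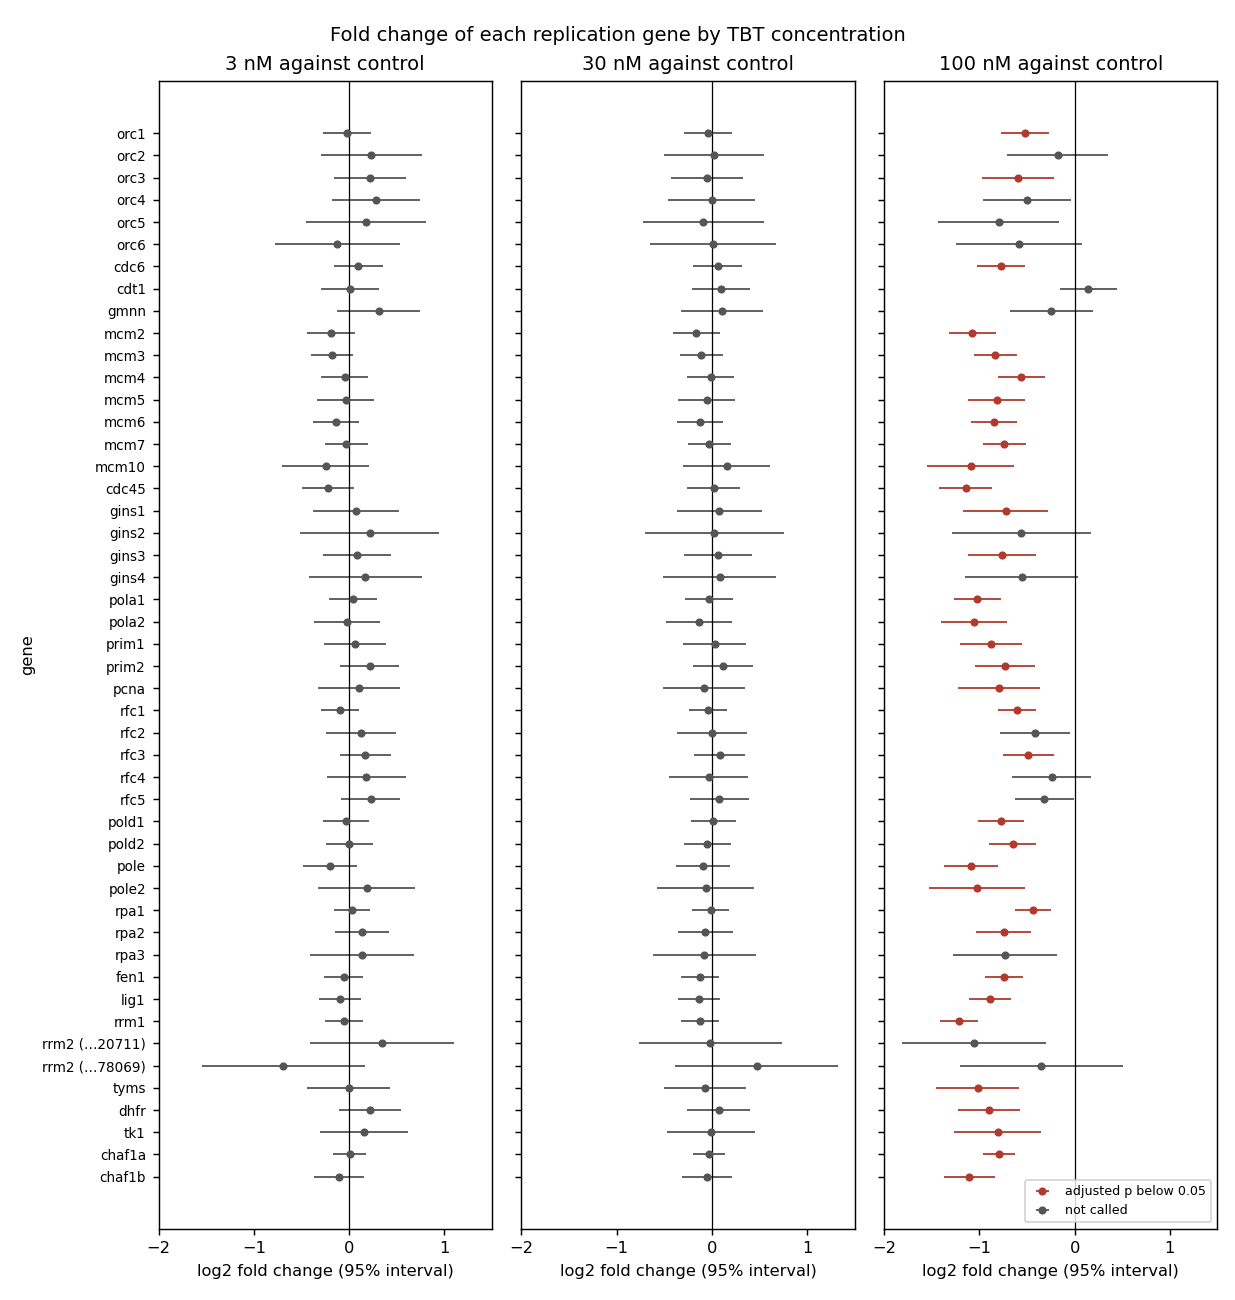
Log2 fold change against control with its 95% interval (horizontal axis) for each replication gene ID (vertical axis) at 3, 30 and 100 nM TBT, in red where the adjusted p was below 0.05. At 3 and 30 nM none of the 48 is red, and at 100 nM 34 are, all below 0.

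Set directly against 30 nM, the 100 nM pools were lower for most of the machinery. Of the 48 IDs 33 fell and 0 rose, where 3.95% of all genes fell, 5.29% rose and 9.23% did either, and the median log2 fold change was -0.72, against -0.01 over all genes. Some calls hung on single libraries. Of the 12 fits without 1 library, the pcna call was lost in 9 (adjusted p up to 0.157). Those of gins1 and tk1 were lost in 6 each, and of orc1 and pole2 in 3 each. The calls of mcm4, rfc3 and tyms were lost in 2 each, and of gins3 and rpa1 in 1 each. The largest difference was that of mcm10, at -1.25 ± 0.21 (adjusted p = 0.00384), with 41, 65 and 69 normalised counts at 100 nM, against 141, 134 and 135 at 30 nM. The rrm1 gene had the lowest p (-1.09 ± 0.09, adjusted p = 0.000101). The orc3 gene, called against control, was not called here (-0.54 ± 0.17, adjusted p = 0.0734), and cdt1 again was the only ID above 0 (0.04 ± 0.14, adjusted p = 0.9). In a joint test of the 4 groups 34 of 48 IDs passed, against 12.9% of all genes.

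Other genes of the same processes were read from lists of their own. Among all tested genes 7.9% were called lower and 9.63% higher at 100 nM, and 0.379% were called higher at 30 nM. Among further replication factors 19 of 28 tested IDs fell at 100 nM and 0 rose, with a median log2 fold change of -0.60. The examples with the lowest p were wdhd1, a fork scaffold protein (169, 160 and 207 normalised counts at 100 nM, against 436, 404 and 430 in controls, -1.25, adjusted p = 0.000105), atad5a, which unloads PCNA (-0.94, adjusted p = 0.000244), and chtf18, part of an alternative clamp loader (-0.98, adjusted p = 0.000254). At 30 nM 1 of the 28 rose, a further gene ID named wdhd1 (3.45, adjusted p = 0.0366) that was named after its value was seen. This second wdhd1 ID was also the only 1 of the 28 above 0 at 100 nM (1.62), where it was not called, so the 2 IDs of that name differed in direction. Of the G1/S regulators, which promote or restrain entry into S phase, 14 of 25 fell at 100 nM and 0 rose, with a median of -0.42. These included the cyclin gene ccna2 (247, 216 and 259 at 100 nM, against 475, 560 and 568 in controls, -1.15, adjusted p = 0.000111), the transcription factor genes mybl2b (-0.997, adjusted p = 0.000129), E2F1 (-1.01, adjusted p = 0.00598) and E2F2 (-0.96, adjusted p = 0.00263), cdk2 (-0.86, adjusted p = 0.00521) and ccne2 (-0.63, adjusted p = 0.00946). Genes that restrain S phase entry fell too, such as rb1 (-0.62, adjusted p = 0.00288), e2f7 (-0.65, adjusted p = 0.00323) and e2f8 (-0.72, adjusted p = 0.0034). These were named after their values were seen. Genes of the S phase checkpoint and fork repair fell in 9 of 19 cases and 1 rose, with a median of -0.49. The riser, atrip, was named after its value was seen (0.35, adjusted p = 0.045). With equal totals 0 of the 19 rose, where 1127 of 22404 genes did. Among those with the lowest p were the Fanconi anaemia gene fanci (-1.08, adjusted p = 0.000622) and the checkpoint kinase gene chek1 (-1.03, adjusted p = 0.00387).

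Mitosis and spindle genes, which act after replication, fell in 34 of 35 cases with 0 rising, where 7.9% of all tested genes fell and 9.63% rose. Their median was -1.13, beside -0.75 for the replication genes. The spindle factor gene tpx2 had 313, 311 and 367 normalised counts at 100 nM, against 816, 916 and 845 in controls (-1.38, adjusted p = 1.74e-05). The mitotic kinase gene plk1 (-1.05, adjusted p = 2.44e-05) and the anaphase activator gene cdc20 (-1.33, adjusted p = 2.65e-05) also fell. The proliferation marker mki67 had 796, 1137 and 1043 at 100 nM, against 2339, 3143 and 2677 in controls (-1.46, adjusted p = 0.000209), and the topoisomerase gene top2a fell by 1.28 on the log2 scale (adjusted p = 0.000195).

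The CDK inhibitors and other brakes on division were mixed, with 5 of 12 rising and 1 falling at 100 nM and a median of 0.11. Among all tested genes 9.63% rose and 7.9% fell. The stress-induced gadd45aa had 1195, 747 and 1083 normalised counts at 100 nM, against 449, 174 and 287 in controls (1.81, adjusted p = 0.00193), and the antiproliferative gene btg1 rose by 0.76 (adjusted p = 0.00214). Its relative btg2 fell, with 1858, 1562 and 1513 at 100 nM, against 10226, 4339 and 6358 in controls (-2.001, adjusted p = 0.000708), and was called at 30 nM too (-2.26, adjusted p = 0.00518). At 3 nM btg2 was as low, with 1521, 1506 and 2290, and just missed the threshold (-1.92, adjusted p = 0.0512). The p21 gene cdkn1a, a CDK inhibitor and p53 target, had 236, 163 and 235 at 100 nM, against 393, 209 and 277 in controls (-0.44, adjusted p = 0.249). Purine and pyrimidine synthesis genes, which supply ribonucleotides, rose in 5 of 20 cases and fell in 1, with a median of 0.05. Here ctps1b rose by 0.71 (adjusted p = 0.0152) and ppat by 0.45 (adjusted p = 0.0164), while pfas fell by 0.51 on the log2 scale (adjusted p = 0.022). With every library scaled to the same total, the median over all genes moved to -0.21, and 1127 of 22404 genes rose and 2865 fell. Of the 20 synthesis genes 0 then rose and 4 fell, with a median of -0.13. The brakes then rose in 3 of 12 cases with a median of -0.07. Relative to all genes, the replication IDs were lower by 0.734 as deposited and by 0.735 with equal totals. Scaling moves all genes of a library by a single factor, so this difference could hardly change and is no test of the scaling. The calls of ctps1b, ppat and pfas were each lost without control pool 3. Those of ctps1b and pfas were also lost without 100 nM pool 1, that of ppat without 100 nM pool 3 and that of pfas without control pool 1. The highest adjusted p of these was 0.0759. The further risers, named after their values were seen, were gadd45ga, btg3 and cdkn1bb among the brakes (0.48 to 0.64) and mthfd1b, paics and mthfd2 among the synthesis genes (0.27 to 0.75).

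**Figure D5:**
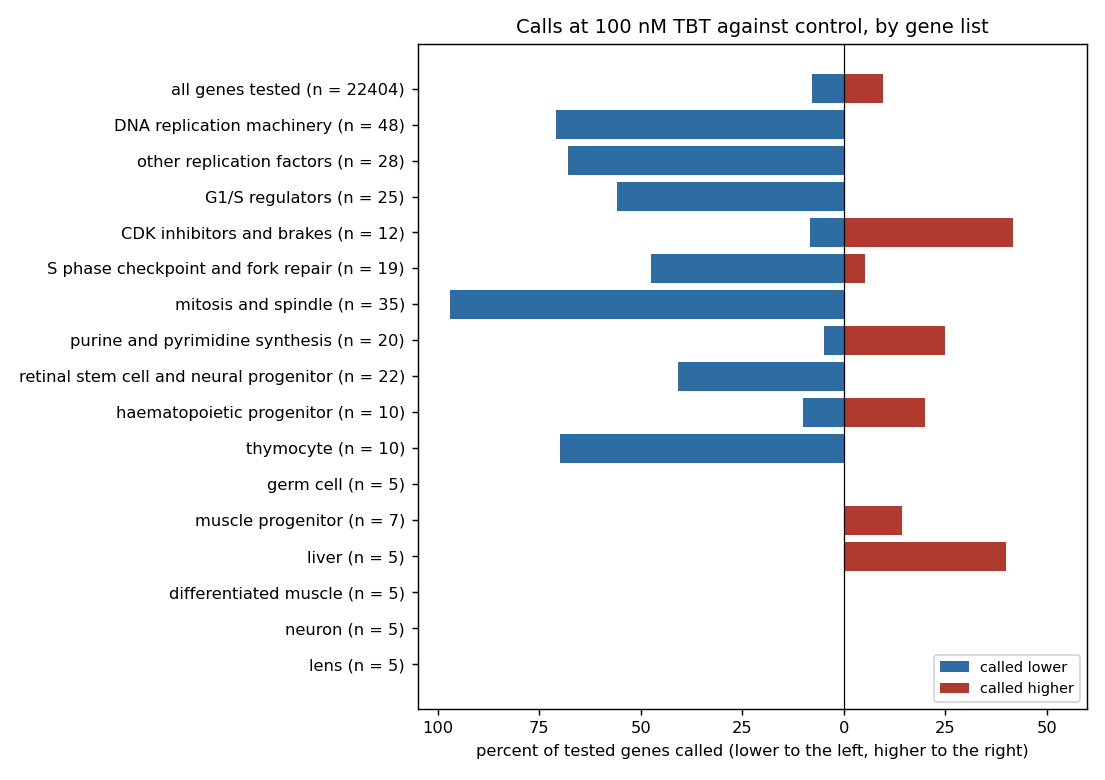
Percent of tested gene IDs called at 100 nM TBT against control (horizontal axis, lower to the left and higher to the right) for each gene list and for all tested genes (vertical axis). The replication IDs stand at 70.8% lower and 0 higher, and the mitosis and spindle list at 97.1% lower.

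Markers of cell populations that divide at this age, and of other tissues, were read in the same libraries. Among all tested genes 7.9% were called lower and 9.63% higher at 100 nM, and 0.379% higher at 30 nM. With equal totals 2865 of 22404 genes were called lower and 1127 higher at 100 nM. Without the second libraries 1863 were called lower and 2124 higher. Retinal stem cell and neural progenitor markers fell in 9 of 22 cases and 0 rose, and their summed level was 7592 to 8798 in 100 nM pools, against 9257 to 11314 in control pools. Thymocyte markers fell in 7 of 10 cases and 0 rose, with a summed level of 385 to 588 at 100 nM, against 701 to 1079 in controls. These lists therefore moved in the same direction as the replication genes at 100 nM, and their part in the result was not tested. The progenitor list had median log2 fold changes of -0.20 at 3 nM, -0.19 at 30 nM and -0.50 at 100 nM, with 0 calls at 3 and 30 nM. Those of the thymocyte list were 0.04, -0.35 and -0.98. Without the second libraries of every group the progenitor list gave 8 lower and 1 higher at 100 nM, and the thymocyte list 5 lower and 0 higher. Haematopoietic progenitor markers gave 1 lower (gata2b) and 2 higher (gata1a and lmo2) of 10, at 4986 to 5504 in 100 nM pools, against 5435 to 5913 in control pools. With equal totals this list gave 3 lower and 1 higher, and without the second libraries 0 lower and 2 higher. The lmo2 call was lost without 100 nM pool 1 or 3 or control pool 1 or 3 (adjusted p up to 0.0939). Germ cell markers gave 0 calls of 5, at 145 to 250 at 100 nM, against 168 to 241 in controls, and muscle progenitor markers 1 higher (met) of 7, at 2090 to 2246 at 100 nM, against 1833 to 2609 in controls. The met call (adjusted p = 0.0496) was lost in 11 of the 12 fits without 1 library, the exception being control pool 1, and with equal totals the muscle progenitor list gave 1 lower and 0 higher. Liver markers rose in 2 of 5 cases at 100 nM (fabp10a and ttr) and in 2 of 5 at 30 nM, a concentration at which no replication gene was called. Their summed level was 133604 to 246184 at 100 nM, against 112354 to 164864 in controls. Differentiated muscle, neuron and lens markers had 0 calls among 5 each, with sums of 555927 to 875848, 8555 to 16505 and 15089 to 27521 at 100 nM, against 527797 to 653911, 10092 to 24420 and 17413 to 22747 in controls. All 5 neuron markers were below control at each concentration, with medians of -0.43 at 3 nM, -0.39 at 30 nM and -0.44 at 100 nM. At 100 nM differentiated muscle gave 1 lower with equal totals, and neuron and lens 0. Without the second libraries differentiated muscle and neuron gave 1 lower each and lens 0, and the lens median moved from -0.08 to -0.53. Of all these markers, cd8a (thymocyte) and ca15b (germ cell) were listed at 0 in some libraries and none was at 0 in all 12.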

How the data were processed

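Whole zebrafish larvae were profiled by poly(A) RNA-seq in 12 libraries, 3 per group. What the authors deposited is a score, headed as normalised counts in the files and given in whole numbers. CASAVA, STAR 2.5.1b, RSEM 1.2.28, DESeq2 1.10.1 and build GRCz10 appear in the submitters' processing notes without a stated role. Rounded normalised values allow no count test, and the reads behind them were not recovered, so counting error is unknown. From a deposited table of the whole series only the gene IDs and names were used, to pick the 48 IDs. Its 12 sample columns were not used.

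Groups were taken from the labels. A linear model on log2(value + 1) was fitted to all 12 libraries with limma 3.58.1 in R 4.3.3 (eBayes with a variance trend), for 22404 gene IDs with at least 10 in at least 3 libraries. P-values were adjusted over these by the Benjamini-Hochberg method, with a threshold of 0.05. The procedure was tested on simulated data in which same-numbered libraries shared no effect. That test therefore does not cover variation shared by such libraries. The genes, the lists and the tests were chosen with earlier results of these data known. All genes of the set were named, and from each further list the 3 called genes with the lowest p at 100 nM, plus cdkn1a, E2F1, ccne2, ccna2, cdk2, mki67 and top2a. 1 gene that this rule names is not reported here. Marker lists were given as counts and sums. List symbols were matched to the gene names of the files, ignoring case where needed, and 8 found no match. No sequence is shown, and gene models carry no coordinates here. Alternatives were other pseudocounts, filters, scalings, spread estimates, groups in the fit, a replicate block, and leaving out each library. Across genes, r within a group was 0.948 to 0.989 and no library was treated as a duplicate.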

Additional observations from a re-analysis of the deposited data

How the results depend on the processing

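With every library scaled to the same total, the median log2 fold change of the replication genes at 100 nM against control was -0.94 and 41 of 48 were called lower. All genes shifted too, to a median of -0.21. Of 22404 genes 2865 were then called lower and 1127 higher, against 1769 and 2157 as deposited. Fitting only the groups compared gave 21 called lower, and 24 for 100 nM against 30 nM. Over all genes these fits called 459 and 469 lower, against 1769 and 884 with all 12 libraries. Fewer libraries, and only those of the groups compared, then estimate the spread, and why calls were lost was not tested. The other settings run on these libraries (pseudocounts of 0.5 and 5, no filter and a stricter one, TMM scaling, robust moderation, no variance trend) gave 34 lower at 100 nM against control. Over all genes they called 1656 to 1774 lower. Summing the rrm2 IDs gave 35 of 47, beside 1770 of 22403 genes. In every setting 0 were called higher at 100 nM, and 0 in either direction at 3 or 30 nM. Leaving out 1 library at a time gave 29 to 37 lower at 100 nM against control, 23 to 34 against 30 nM and 27 to 36 in the joint test. Over all 22404 genes these fits called 1003 to 2222 lower against control, 401 to 1121 lower against 30 nM and 1806 to 3342 in the joint test. The medians of the replication genes were -0.83 to -0.62 at 100 nM, -0.10 to 0.05 at 30 nM and -0.04 to 0.09 at 3 nM.

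Same-numbered libraries correlated in their deviations from the group means at 0.293 to 0.563 for number 1, 0.35 to 0.578 for number 2 and -0.0202 to 0.15 for number 3. For number 3 only 1 of 6 pairs was above 0.1. Deviations within a group sum to 0, so those of number 3 follow from numbers 1 and 2. Its low r therefore cannot show that the numbers are not pairs. The labels do not say what the numbers mark, and the main fit did not take them as pairs. The main fit therefore leaves the variation shared by same-numbered libraries in its spread, and its standard errors and calls carry this limit. With the replicate number as a block, 42 of 48 were called lower at 100 nM, as were 3888 of 22404 genes. In either direction 7678 genes were called with the block, against 3926 without it. Over all genes the block gave 778 calls at 30 nM, against 119 without it, and 1234 at 3 nM, against 9. Leaving out 1 library gave 28 to 267 calls at 30 nM and 0 to 33 at 3 nM over all genes, so the shares of all genes called at these concentrations are uncertain. In all, 11 of 12 libraries correlated best on average with their own number.

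The sign turned only in uncalled genes. For cdt1 it was -0.045 against control and -0.074 against 30 nM with equal totals, and -0.056 against 30 nM without all second libraries. Leaving out 1 library at a time gave cdt1 -0.027 to 0.15 against 30 nM, below 0 without 100 nM pool 3 or 30 nM pool 2, and gave orc2 -0.37 to 0.051 against control and -0.40 to 0.027 against 30 nM, above 0 without 100 nM pool 2. The causes were not tested. With 3 pools a group, 3-against-3 exact tests of single genes cannot go below p = 0.1.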
